A study of Mus musculus with 6 samples.

Results

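E-cadherin, Epcam and the desmosome genes are 10 genes (Cdh1, Epcam, Dsp, Jup, Dsg2, Dsc2, Pkp2, Pkp3, Perp and Ctnnd1) out of 19938 measured in the embryonic mouse stomach. They were taken by name, each through the probe set annotated to that symbol alone with the highest mean over the 6 arrays, and each had 1 such probe set. RNA came from whole stomach at E13.5 (the embryonic day). The 3 wild type arrays were compared with 3 arrays of Nkx3.2Cre;R26-SmoM2 stomach (called SmoM2). In these embryos Smoothened, in the form SmoM2 that signals without hedgehog ligand, is expressed from the Rosa26 locus after recombination by a Cre that Nkx3-2 regulatory sequence drives, which acts in the mesenchyme of the stomach. The labels do not say whether replicates were separate embryos or pools, so the p-values measure only how far these samples spread, which may be partly technical.

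Epithelial cells are held together by adherens junctions and desmosomes. In adherens junctions E-cadherin binds E-cadherin on the next cell, and its tail binds catenins that connect it to actin. In desmosomes the cadherins desmoglein and desmocollin bind plakoglobin and plakophilins, which bind desmoplakin, and desmoplakin anchors keratin filaments. Epcam is an adhesion protein of simple epithelia that associates with claudins. In the embryonic stomach these proteins are best known from the epithelium, which lies inside the mesenchyme where Nkx3-2 is expressed. Several are also made elsewhere: p120 catenin in most tissues, plakoglobin in endothelium, and desmosomal proteins in mesothelium and heart muscle.

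Cdh1, Epcam and Dsp were lower in SmoM2 and passed the threshold (limma adjusted p under 0.05 over all genes). Jup, Dsg2, Dsc2, Ctnnd1 and Pkp2 had every SmoM2 array below every wild type array without passing it, and the groups of Pkp3 and Perp overlapped. Over all genes 0.983% passed the threshold, 0.657% lower and 0.326% higher in SmoM2, beside 3 lower and 0 higher of these 10. At an unadjusted limma p under 0.05, 7 of the 10 were lower and 0 higher. Over all 19938 genes 1443 were lower and 655 higher at that p, the background for such counts in the lists below. None of the 3 calls was kept when every probe set was tested as its own row, with signal of Y-linked genes as a covariate, or without SmoM2 3, and the 3 differences stayed negative in these fits (at an unadjusted limma p under 0.05, 7, 5 and 7 of the 10 were lower). Groups with every SmoM2 array below every wild type array made up 10.1% of all genes. The median log2 difference (SmoM2 minus wild type) was -0.36 over the 10 genes, beside 0.0018 over all genes. Each array measured all cell types together, so fewer epithelial cells and less RNA per epithelial cell cannot be told apart.

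The bases before the start sites of Epcam and Dsp, both lower in SmoM2, and of Jup are shown. Epcam and Dsp are the called genes with a sequence, and Jup, a partner of Dsp that did not pass the threshold, is set beside them. RefSeq sequence (build GRCm38.p6) was matched for 4 of the 10 genes, which were Epcam, Dsp, Jup and Ctnnd1. Each line gives the 250 bases before the start site, 5′ to 3′ on the gene's strand, and capitals mark CAGGTG, the E-box bound by Snail and Zeb repressors, and GGGCGG, the GC box, on either strand.
Epcam: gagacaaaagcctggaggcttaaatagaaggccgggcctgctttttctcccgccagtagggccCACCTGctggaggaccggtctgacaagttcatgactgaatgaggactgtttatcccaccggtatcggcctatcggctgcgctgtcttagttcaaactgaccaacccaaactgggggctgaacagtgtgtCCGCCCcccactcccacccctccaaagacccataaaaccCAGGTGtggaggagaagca
Dsp: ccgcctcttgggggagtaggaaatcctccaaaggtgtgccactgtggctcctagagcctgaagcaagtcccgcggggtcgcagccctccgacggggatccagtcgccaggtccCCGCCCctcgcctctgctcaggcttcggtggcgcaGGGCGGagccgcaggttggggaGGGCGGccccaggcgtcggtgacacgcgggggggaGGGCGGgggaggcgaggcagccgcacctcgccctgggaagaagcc
Jup: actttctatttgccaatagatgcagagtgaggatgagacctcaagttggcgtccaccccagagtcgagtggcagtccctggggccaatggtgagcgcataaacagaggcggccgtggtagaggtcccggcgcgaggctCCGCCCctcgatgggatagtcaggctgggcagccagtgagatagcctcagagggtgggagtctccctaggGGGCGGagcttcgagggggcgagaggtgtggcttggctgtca
The Epcam stretch lies at chr17:87635729-87635978 on the plus strand, the Dsp stretch at chr13:38151044-38151293 on the plus strand and the Jup stretch at chr11:100397791-100398040 on the minus strand. Epcam had 2 E-boxes, starting 187 and 19 bases before the start site, and 1 GC box. Dsp had 0 E-boxes and 4 GC boxes, and Jup 0 and 2. The groups of Ctnnd1 did not overlap either, and its 2 windows, not printed, held 0 E-boxes and 0 GC boxes. Of 32851 RefSeq windows of this length, 17.2% held the E-box and 32.7% the GC box. The letters TGGGTGGTC, a binding motif of the hedgehog factor Gli, had 0 matches in these 3 stretches and matches in 0.225% of all windows. The motifs do not overlap each other in these stretches, and a match is a description of the letters, not a site of binding.

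The labels were checked on hedgehog readouts. Hhip, a hedgehog-binding membrane protein induced by the pathway, was at 10.36, 10.49 and 10.42 (log2 signal) in wild type and at 11.73, 11.70 and 11.67 in SmoM2. Ptch1, the receptor and a target, was at 12.31, 12.33 and 12.36 and at 12.81, 12.90 and 12.74. Both were above wild type on every SmoM2 array. Of the 7 stomach markers, among them Barx1, Sox2 and Foxf1, all 7 lay above 8.05, the 95th percentile of 1194 olfactory and vomeronasal receptor genes, which the stomach is not known to express. Between the groups 1 of them was lower, Cym (-0.81, limma adjusted p = 0.00373), and 1 higher, Foxf1 (0.37, limma adjusted p = 0.0366). The list was therefore read for detection only. The arrays differed in the embryos they hold, since Xist was at 7.11 in wild type 1 and between 11.43 and 12.37 on the other arrays. The Y-linked gene Eif2s3y was at 10.40, 10.09 and 8.81 in wild type and between 8.58 and 9.19 in SmoM2. Uty, also Y-linked, was at 10.43, 9.75 and 9.37 in wild type and at 8.77, 8.93 and 9.24 in SmoM2, without overlap. Y-linked signal thus went partly with the group, and a fit with it as a covariate cannot fully separate the 2. On wild type 2 Xist, at 11.94, was high beside high Y-linked signal, so that array appears to hold RNA of both sexes. Values of RMA, the method named for these files, are comparable between arrays for one gene, and its fold changes of dim genes are compressed.

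Cdh1 encodes E-cadherin, the adhesion receptor of epithelial adherens junctions. Its log2 signal was 10.41, 10.32 and 10.22 on the 3 wild type arrays and 9.67, 9.78 and 9.75 on the 3 SmoM2 arrays. The groups lay 0.44 apart, more than the 0.19 spanned by wild type and the 0.10 spanned by SmoM2. Cdh1 was 1.49-fold lower in SmoM2 (log2 difference -0.58, SE 0.07, 95% interval -0.75 to -0.41; limma adjusted p = 0.0111). Without wild type 1 or SmoM2 3 the adjusted p of Cdh1 was 0.0673 and 0.0749, and with the signal of Y-linked genes as a covariate the difference was -0.46 (adjusted p = 0.240).

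Ctnnd1 encodes p120 catenin, which binds the E-cadherin tail and keeps the receptor at the cell surface. It was at 11.88, 11.72 and 11.75 in wild type and at 11.48, 11.60 and 11.59 in SmoM2. The groups did not overlap, with 0.11 between the lowest wild type and the highest SmoM2 array. The difference of -0.22 (SE 0.07) did not pass the threshold (limma adjusted p = 0.289).

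Of 13 other genes of the adherens junction, 0 passed the threshold in limma, with 3 lower and 0 higher at an unadjusted p under 0.05 and a median difference of -0.05. The largest differences were in Afdn, the actin-binding protein afadin (-0.41, adjusted p = 0.103), and in Plekha7, which binds p120 catenin (-0.19, adjusted p = 0.440). Ctnnb1, β-catenin, which also carries Wnt signals, was at 13.55 ± 0.06 in wild type and 13.44 ± 0.06 in SmoM2 (SD, n = 3; named after its value was seen; limma adjusted p = 0.676).

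Among 13 other cadherins 1 fell and 0 rose, with 4 lower and 1 higher at an unadjusted limma p under 0.05. Their median difference was -0.019. The 1 that fell was Cdh8, a cadherin best known from neurons (log2 difference -0.38, SE 0.07, adjusted p = 0.0365). Cdh6 had the largest difference without passing (-0.41, limma adjusted p = 0.0784). The neural and mesenchymal N-cadherin gene Cdh2 was at 12.11 ± 0.00427 in wild type and 11.80 ± 0.06 in SmoM2 (SD, n = 3; limma adjusted p = 0.0671). Cdh3, which encodes P-cadherin, was at 11.56, 11.75 and 11.71 in wild type and at 11.62, 11.76 and 11.65 in SmoM2. Its groups overlapped and the difference was 0.0056 (95% interval -0.17 to 0.18). Cdh2, Cdh3 and Cdh6 were named after their values were seen, and the difference between any of them and Cdh1 was not tested.

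Zinc finger and basic helix-loop-helix proteins repress Cdh1 in other settings, those of the Snail, Zeb and Twist families and also Tcf3, Tcf4 and Klf8. Of 10 such genes 0 passed the threshold in limma, with 1 lower and 1 higher at an unadjusted p under 0.05 and a median difference of 0.01. The largest differences were in Zeb2 (-0.35, adjusted p = 0.0722) and Twist2 (0.29, adjusted p = 0.304). The mesenchyme also makes these factors, so their level in the epithelium was not measured.

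Epcam was at 10.87, 10.67 and 10.87 in wild type and at 10.26, 10.45 and 10.28 in SmoM2. Every SmoM2 array was below every wild type array, and wild type 2 and SmoM2 2 were the closest pair, 0.23 apart. Epcam was 1.39-fold lower in SmoM2 (log2 difference -0.48, SE 0.08, 95% interval -0.67 to -0.29; limma adjusted p = 0.0341). This call rested on 5 of the 6 arrays: without wild type 1, 2 or 3, SmoM2 1 or SmoM2 3 the adjusted p was 0.188, 0.0580, 0.0681, 0.115 and 0.197, while the difference stayed between -0.54 and -0.44.

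Relatives and partners of Epcam, with the matriptase system that cleaves it, had negative differences too. Of 8 listed genes 7 were matched, and these 7 differences were all negative, with a median of -0.33. Spint2, an inhibitor of the membrane protease matriptase, fell from 10.29 ± 0.10 to 9.78 ± 0.14 (SD, n = 3; limma adjusted p = 0.0335). The other 6 did not pass, with 5 of them lower at an unadjusted p under 0.05. Among them were St14, which encodes matriptase, a protease that cleaves Epcam (-0.43, adjusted p = 0.0663), and Cldn7, the claudin that binds Epcam (-0.43, adjusted p = 0.0928; both named after their values were seen).

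Dsp encodes desmoplakin, the link between the desmosome and keratin filaments, and had the largest difference of the 10 genes. It was at 10.22, 10.41 and 10.18 in wild type and at 9.51, 9.71 and 9.60 in SmoM2. The groups lay 0.47 apart, more than the spread within either of them. Dsp was 1.59-fold lower in SmoM2 (log2 difference -0.67, SE 0.09, 95% interval -0.86 to -0.47; limma adjusted p = 0.0111). Without SmoM2 3 its adjusted p was 0.0774, and with signal of Y-linked genes as a covariate the difference was -0.61 (adjusted p = 0.176).

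The desmosomal cadherins Dsg2 and Dsc2, the desmoglein and desmocollin of simple epithelia, had lower signals in SmoM2 without passing the threshold. Dsc2 was at 8.83, 8.66 and 8.67 in wild type and at 8.01, 8.37 and 8.25 in SmoM2, a difference of -0.51 (SE 0.10; limma adjusted p = 0.0532). Without SmoM2 2 the adjusted p of Dsc2 was 0.0331. Dsg2 was at 9.81, 9.68 and 9.63 in wild type and at 9.25, 9.51 and 9.32 in SmoM2, a difference of -0.35 (SE 0.09; limma adjusted p = 0.125). In both genes the groups did not overlap, with SmoM2 1 lowest and SmoM2 2 highest within SmoM2.

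Jup encodes plakoglobin, which binds the tails of desmosomal cadherins and of E-cadherin. It was at 11.48, 11.35 and 11.38 in wild type and at 10.88, 11.12 and 11.07 in SmoM2. The groups lay 0.23 apart and the difference was -0.38 (SE 0.08; limma adjusted p = 0.0784). The adjusted p of Jup was 0.0403 when genes below the median signal of all probe sets were left out.

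The plakophilins and Perp differed less. Pkp2, a plakophilin of simple epithelia and heart muscle, was at 8.90, 8.81 and 8.84 in wild type and at 8.76, 8.79 and 8.67 in SmoM2 (difference -0.11, 95% interval -0.26 to 0.05; limma adjusted p = 0.676). Its groups did not overlap, but only 0.020 separated them. Pkp3, a plakophilin of most epithelia, was at 8.98, 8.87 and 8.99 in wild type and at 9.16, 8.85 and 9.00 in SmoM2, and the SmoM2 arrays spanned the wild type values (difference 0.06, 95% interval -0.14 to 0.26; limma adjusted p = 0.891). Perp, a membrane protein of desmosomes induced by p53 and p63, was at 8.26, 8.18 and 8.22 in wild type and at 8.22, 8.11 and 8.20 in SmoM2 (difference -0.05, 95% interval -0.20 to 0.11; limma adjusted p = 0.889). All 10 genes had a mean above 8.05, the 95th percentile of the receptor genes, but Perp, with a mean of 8.20, lay close to it, where RMA compresses changes.

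The median of the receptor genes, a measure of dim signal, was 6.28, 6.18 and 6.32 on the wild type arrays and 6.40, 6.16 and 6.24 on the SmoM2 arrays. Pkp3 followed this order of arrays in both groups and Perp within SmoM2, while the other 8 genes followed it in neither group. Within SmoM2, Cdh1, Epcam, Dsp, Jup, Dsg2, Dsc2 and Ctnnd1 ran in exactly the opposite order, and Dsp did so within wild type too. The share of all genes in the opposite order was not counted. Over all genes 31.1% followed it within wild type and 29.6% within SmoM2, and the part of this signal in the values of Pkp3 and Perp was not tested.

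**Figure D1:**
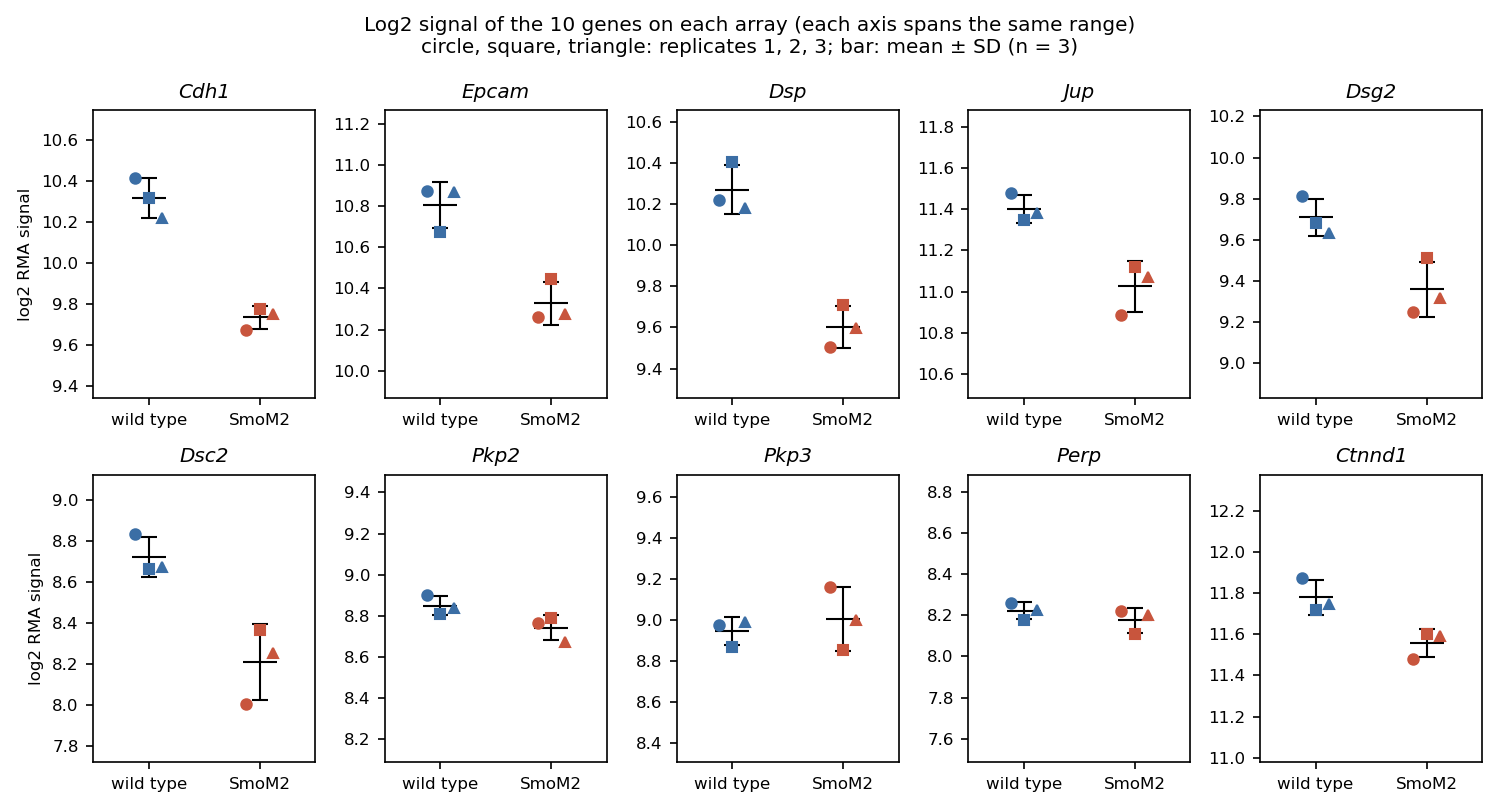
Log2 RMA signal (vertical axes, each spanning the same range) of the 10 genes in wild type and SmoM2 (horizontal axis), with 1 point per array (circle, square and triangle for replicates 1, 2 and 3) and bars for mean ± SD (n = 3). In 8 panels every SmoM2 point lies below every wild type point, by 0.47 in Dsp and by 0.020 in Pkp2, and in Pkp3 and Perp the points overlap.

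Within the groups, wild type 1 had the highest wild type value in 8 of the 10 genes (34.6% of all genes) and wild type 2 the lowest in 7 (49.6%). Among the SmoM2 arrays, SmoM2 2 was highest in 8 (35.9% of all genes) and SmoM2 1 lowest in 7 (42.6%). The means of the 10 genes were 9.96, 9.87 and 9.88 on the wild type arrays and 9.52, 9.63 and 9.57 on the SmoM2 arrays. The 2 sets of means did not overlap.

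**Figure D2:**
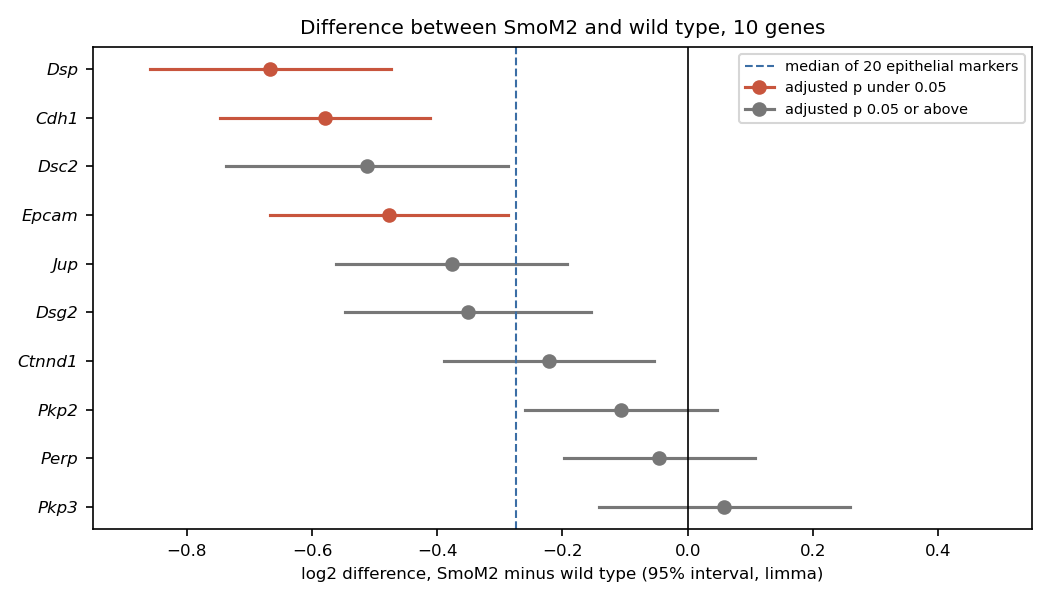
Log2 difference (SmoM2 minus wild type, horizontal axis) of each of the 10 genes with its 95% interval from limma, ordered by size, in red where the adjusted p was under 0.05. The dashed line is the median of 20 epithelial markers (-0.28), and the intervals of Dsp, Cdh1, Dsc2 and Epcam lie to the left of it, while those of Pkp2, Perp and Pkp3 include 0.

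The remaining desmosome genes belong mostly to stratified epithelia such as the later forestomach and the skin. Of 11 listed genes 9 were matched and 0 passed the threshold in limma, with 1 lower and 0 higher at an unadjusted p under 0.05. The median difference was 0.06 and 7 of the 9 differences were positive. Dsc3, a desmocollin of basal layers, had the largest difference (7.83 ± 0.05 in wild type and 7.45 ± 0.10 in SmoM2, SD, n = 3; limma adjusted p = 0.0597), followed by the desmoglein Dsg1b (0.11, adjusted p = 0.848). The mean of 4 of the 9 genes was above 8.05, so the other 5, Dsc3 among them, were within the range of genes the stomach is not known to express.

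Markers of stratified epithelium and of heart muscle, other sources of desmosomal transcripts, differed little between the groups. Of 6 stratified markers, including Trp63, Krt5 and Krt14, 0 passed in limma, and 0 at an unadjusted p under 0.05. Their means ran from 7.56 to 8.44, with 3 of 6 above 8.05, and their array means were 8.04 to 8.13 in wild type and 8.05 to 8.22 in SmoM2. Of 8 heart muscle markers 0 passed in limma, and 0 at an unadjusted p under 0.05, with 6 of 8 above 8.05 and array means of 8.19 to 8.35 and 8.20 to 8.41. Among 4 measured genes of the p53 family and its targets, 0 passed in limma, and 0 at an unadjusted p under 0.05, with Trp73 at a difference of 0.11 and Trp63 at 0.08.

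The decreases went together with lower signals of other epithelial genes. Of 20 epithelial markers outside the 10 genes, 7 fell, 0 rose and 13 did not pass, with a median difference of -0.28 and 19 negative differences. The 4 with the largest changes were Esrp1, an epithelial splicing factor (-0.68, adjusted p = 0.0245), the claudin Cldn6 (-0.66, adjusted p = 0.0121), the keratin Krt18 (-0.57, adjusted p = 0.0168) and Ap1m2, an epithelial sorting adaptor (-0.56, adjusted p = 0.0176). The mean of the 20 markers ran from 9.63 to 9.76 on the wild type arrays and from 9.38 to 9.46 on the SmoM2 arrays, without overlap.

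Of 9 markers of mesothelium, the epithelium-like outer lining, 2 fell, 0 rose and 7 did not pass, with 7 negative differences and a median of -0.20. Bnc1, a zinc finger factor, was at -0.72 (adjusted p = 0.0158) and Wt1, which encodes a transcription factor of the mesothelium, at -0.52 (adjusted p = 0.0201). The array means of this list were 9.57 to 9.62 in wild type and 9.31 to 9.44 in SmoM2, and 1 of its markers, Muc16, lay below 8.05 on average. Of 7 endothelial markers 0 passed in limma, with 3 lower and 0 higher at an unadjusted p under 0.05. All 7 of their differences were negative, with a median of -0.14. Their array means were 10.61 to 10.67 in wild type and 10.37 to 10.52 in SmoM2. Of 8 mesenchyme markers 0 passed in limma, with 2 lower and 1 higher at an unadjusted p under 0.05 and a median of 0.02. The part of these other cell types in the values of the 10 genes was not tested.

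**Figure D3:**
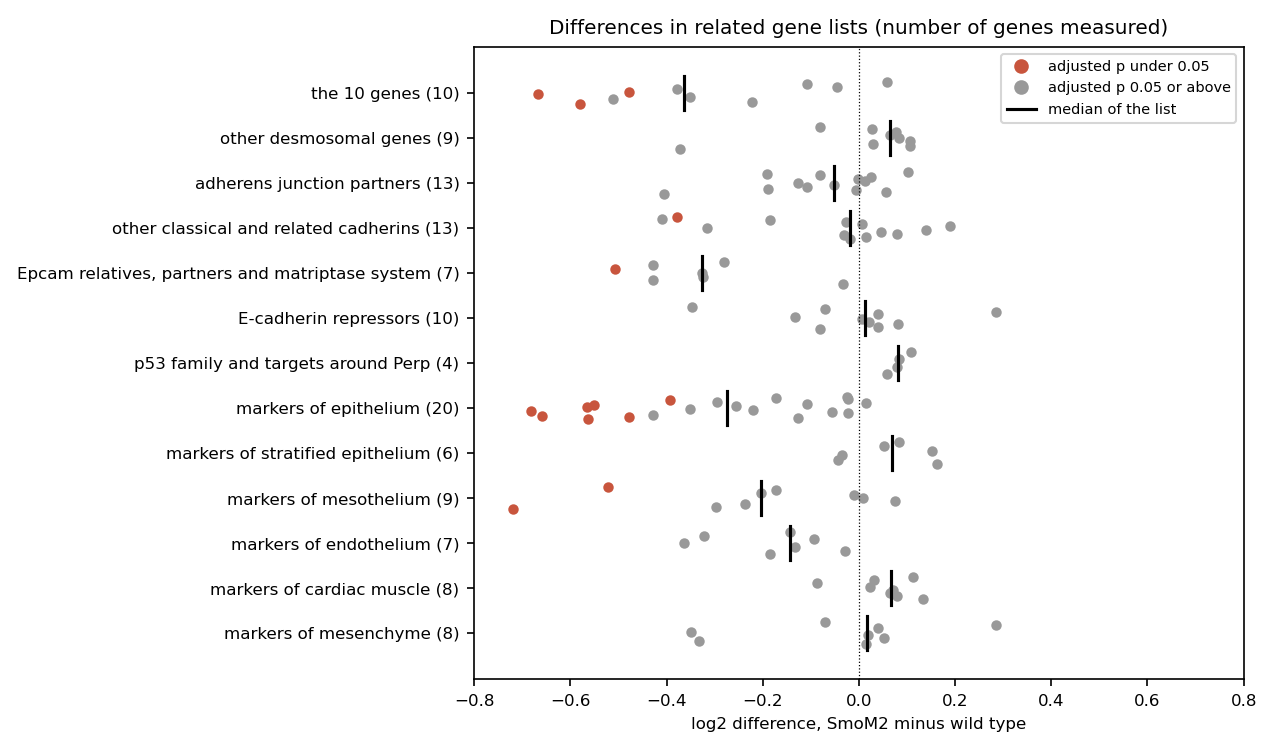
Log2 difference (SmoM2 minus wild type, horizontal axis) of every measured gene in the 10 genes and in 12 related lists, 1 point per gene, in red where the limma adjusted p was under 0.05, with a black line at each list's median. The medians of the 10 genes (-0.36), of the Epcam relatives and partners (-0.33) and of the epithelial markers (-0.28) are the lowest of the lists shown, and the median of the other desmosomal genes is 0.06.

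To see how the 10 genes differed beside these other epithelial transcripts, the mean of the 20 epithelial markers was subtracted from each gene on the same array. Of these markers Ehf, with a mean of 7.10, lay below 8.05, and Ehf, Elf3, Lsr, Tjp3 and Prom1 had differences between -0.06 and 0.01. Such markers bring the difference of the marker mean closer to none. On this scale every SmoM2 array stayed below every wild type array for Cdh1, Epcam and Dsp, which held for 0.441% of all genes. Relative to the markers Cdh1 was at 0.66, 0.68 and 0.46 in wild type and at 0.30, 0.36 and 0.29 in SmoM2. Dsp was at 0.47, 0.77 and 0.42 in wild type and at 0.13, 0.29 and 0.13 in SmoM2. Epcam was separated least, with the lowest wild type value at 1.04 and the highest SmoM2 value at 1.03. Each had an exact permutation p of 0.1 (two-sided), the smallest that 3 against 3 can give, and 0.167 after Benjamini-Hochberg adjustment over the 10 genes.

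On the same scale Jup, Dsg2, Dsc2 and Ctnnd1 had overlapping groups, with differences between -0.21 and 0.08 (exact permutation p from 0.2 to 0.8). Pkp2, Pkp3 and Perp were higher relative to the markers on every SmoM2 array, by 0.19, 0.36 and 0.25 (exact permutation p = 0.1 each, adjusted 0.167). That position was shared by 77.4% of all genes, since the markers themselves were lower. In a limma fit on this scale, added after seeing the data, Dsp (-0.37, adjusted p = 0.00997) and Cdh1 (-0.28, adjusted p = 0.0131) were past the threshold on the lower side and Epcam was not (-0.18, adjusted p = 0.0650). The fit called 0.487% of all genes lower and 77.3% higher, among them Pkp3 (adjusted p = 0.00869), Perp (adjusted p = 0.0146) and Pkp2 (adjusted p = 0.0496). With so many genes called, the Benjamini-Hochberg adjustment changes p-values little. The unadjusted limma p was 0.0041 for Dsp and 0.0066 for Cdh1, beside 2.2e-05 for each without the subtraction. The adjusted p-values of the 2 fits are therefore not comparable. With the keratins Krt8, Krt18 and Krt19 alone as the reference, Cdh1, Epcam and Dsp were at -0.12, -0.021 and -0.21 and their groups overlapped. With the markers that are not tight junction genes as the reference, chosen after seeing the data, the groups of Epcam also overlapped (-0.18), while Cdh1 (-0.28) and Dsp (-0.37) stayed lower on every SmoM2 array.

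**Figure D4:**
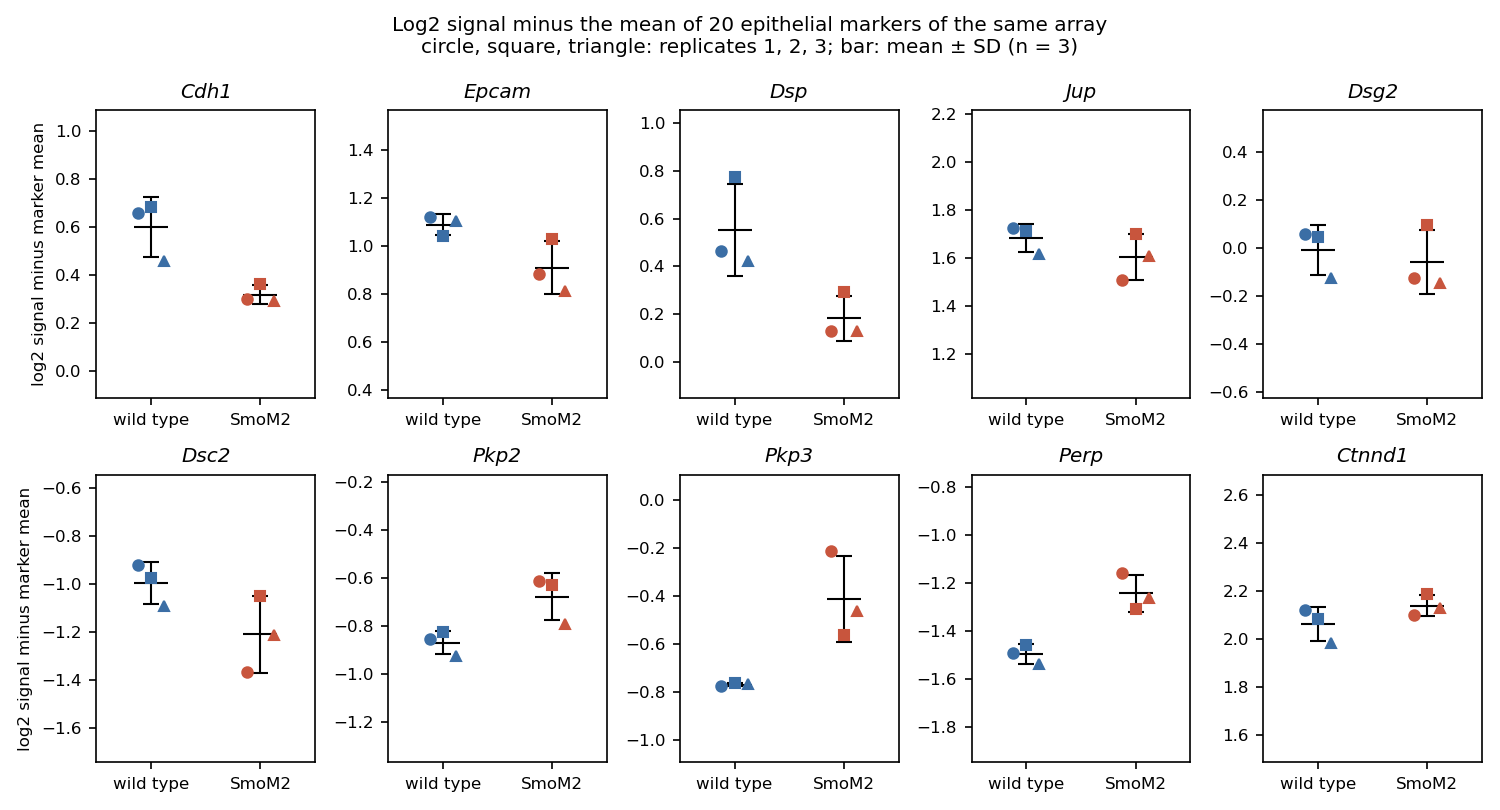
Log2 signal of each of the 10 genes minus the mean of 20 epithelial markers of the same array (vertical axes, each spanning the same range), with 1 point per array and bars for mean ± SD (n = 3). Cdh1, Dsp and, by a narrow gap, Epcam lie lower in SmoM2, the points of Jup, Dsg2, Dsc2 and Ctnnd1 overlap, and those of Pkp2, Pkp3 and Perp lie higher in SmoM2.

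The profile of Cdh1 over the 6 arrays was set against 18710 other genes by the mean absolute difference in log2 signal after each gene was centred on its own mean. The nearest 5 were Gask1b, a Golgi protein (0.028), Cntfr, the receptor of ciliary neurotrophic factor (0.038), Nkain2, a membrane protein (0.038), Wdr19, a protein of intraflagellar transport (0.043), and Cpm, a membrane carboxypeptidase (0.044). Their differences ran from -0.57 to -0.50, and none of them is among the 20 epithelial markers or the 10 genes. This measure depends largely on the difference between the groups, so genes near Cdh1 (-0.58) had to have differences like it. Shared regulation was not tested. Of the epithelial markers Krt18 came nearest, at rank 22 (0.060), and of the 10 genes Dsc2, Dsp and Epcam, at ranks 45, 76 and 111. Ctnnd1 stood at rank 956, Pkp2 at 3275, Perp at 6084 and Pkp3 at 13421.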

How the data were processed

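The deposited table holds log2 signals of 35556 probe sets on 6 arrays, made by the authors with RMA (background correction, quantile normalization and probe set summary). Per the submitters' processing notes the tools were RMA and affy, with no version given there. Groups came from the titles and genotype labels. Platform annotation gave 21789 probe sets 1 symbol, 1621 several and 12146 none listed, and each of 19938 genes was read from its probe set with the highest mean. The difference of SmoM2 and wild type was tested with limma (version 3.58.1, R 4.3.3; functions lmFit and eBayes), two-sided, with Benjamini-Hochberg adjustment over all genes and a threshold of 0.05. Values relative to epithelial markers were compared by exact permutation tests. The script was tested on simulated data. The number of arrays limits the precision.

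The genes and lists were chosen with earlier results of these data known, so no p over a list is given. Lists share members, such as Cldn7, Cdh5, Cdh11, Trp63, Twist1 and Twist2. Named were all 10 genes and, of each related list, up to 4 genes past the threshold or otherwise the 2 with the largest differences. Of the cell type lists, only epithelium followed that rule. Bnc1, Wt1, Muc16 and other genes outside it were named after their values were seen. Alternatives covered the replicate number, arrays left out, dim probe sets, the choice of probe sets, scaling, the variance model and Y-linked signal.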

Additional observations from a re-analysis of the deposited data

How the results depend on the processing

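The differences of Cdh1, Epcam, Dsp, Jup, Dsg2 and Dsc2 between the groups were negative in each alternative fit. Their calls, and the count of 3 lower genes, were not stable. Among probe sets above the 75th percentile 3 of the 10 genes were left. The count was 5 with an intensity trend in eBayes and 8 with array weights, whose estimation did not reach its tolerance and which called 4110 of all genes beside 196. It was 0 with every probe set as its own row (5 called), with signal of Y-linked genes as a covariate (22 called) and with wild type 3 alone against SmoM2 (8 called; chosen after seeing the data, with 1 array assumed to vary like the others). In these limma fits 7, 5 and 5 of the 10 were lower at an unadjusted p under 0.05. Leaving out each array gave counts from 0 (without SmoM2 3, with 7 at an unadjusted p under 0.05) to 4 (without SmoM2 2), and a count of 1 without wild type 1. Counts over all genes were then 32 to 247, and 120 with centring on the 75th percentile (Epcam adjusted p = 0.0882) and 336 with the trend. The median difference ran from -0.42 to -0.30 with arrays left out and was -0.28 with the Y-linked covariate. The higher count was 0 in each of these fits. The cause of these changes was not tested.

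With the arrays centred on the epithelial markers, 3 genes were higher and the median was -0.066, Pkp2 turned to 0.19 and Perp to 0.25, by construction of the scale. Relative to the 20 markers 3 of the 10 genes had SmoM2 wholly below wild type, relative to the keratins 0 and relative to the markers without tight junction genes 2, and leaving out arrays gave 3 to 6.

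The replicate number as a block gave 6 lower genes, adding Jup (adjusted p = 0.0164), Dsg2 (0.0290) and Dsc2 (0.00248), and 698 of all genes. The deviations of same-numbered arrays correlated at -0.10, 0.52 and 0.065 over genes, and those of differently numbered arrays at -0.60 to 0.52. The labels do not say whether the numbers pair the arrays, and correlations over 3 arrays per group cannot settle it.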
